A study of Homo sapiens with 6 samples.

Results

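The 6 microRNAs described here are hsa-miR-320a, hsa-miR-320b, hsa-miR-320c, hsa-miR-320d, hsa-miR-320e and hsa-miR-484, which were taken by name from the 28846 small RNA entries, 2596 of them microRNAs, counted in each library. They were grouped by their known processing, which bypasses Drosha. The rule used none of the counts, but it was set with earlier results of these data known. K562 is an established human leukemia line that expresses erythroid genes. It was transduced with a lentiviral vector that expresses human RUNX1 together with GFP, or with the same SIEW vector carrying GFP only. The study's methods give 3 independent transductions per condition, which were harvested after 10 days in culture, and the labels name no other treatment of either group. Both groups therefore express GFP from an integrated vector, and they differ in the RUNX1 insert. RUNX1 mRNA is not part of a small RNA library, so the over-expression itself cannot be checked in these counts.

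Most microRNAs are cut out of a long primary transcript by the nuclear Microprocessor, in which Drosha is the RNase, and the resulting hairpin is exported by Exportin-5 and cut again by Dicer. The miR-320 and miR-484 precursors are known exceptions. RNA polymerase II starts transcription at the 5′ end of the hairpin itself, so that the precursor carries a methylguanosine cap, leaves the nucleus by Exportin-1 and meets Dicer without a Drosha cut. Mirtrons are the other well-known group that avoids Drosha. They are short introns whose hairpin is released by splicing and debranching. miR-320 is known to act on the transferrin receptor mRNA in red cell precursors, and miR-484 on the mRNA of the mitochondrial fission factor FIS1.

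The mature sequences show how closely the miR-320 entries resemble each other and that miR-484 is unrelated to them by sequence. They were taken from RefSeq (GRCh38.p14), where 5 of the 6 members were matched. hsa-miR-320a is named only. The capitals mark the seed, bases 2 to 8 from the 5′ end, which pairs with target mRNAs.
hsa-miR-320b: aAAAGCUGgguugagagggcaa
hsa-miR-320c: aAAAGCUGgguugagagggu
hsa-miR-320d: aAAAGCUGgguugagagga
hsa-miR-320e: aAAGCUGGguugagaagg
hsa-miR-484: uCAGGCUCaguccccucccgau

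miR-320b, miR-320c and miR-320d shared the seed AAAGCUG. miR-320e begins a base further into the common sequence, so its bases 2 to 8 read AAGCUGG and its seed is a different one. With positions counted from the 5′ end of miR-320b, miR-320c carried C20U after 19 identical bases and was 2 bases shorter. miR-320d carried G19A after 18 identical bases and was 3 bases shorter. miR-320e, aligned from base 2 of miR-320b, carried G17A and was 4 bases shorter. A read that stops before the last bases of these RNAs is therefore the same for several members. miR-484 has the seed CAGGCUC and a GC content of 63.6%, against 47.4% to 50.0% for miR-320b to miR-320e. In the RefSeq table, which holds 2370 mature names, hsa-miR-4429 has the seed of miR-320b to d, and hsa-miR-3155a and hsa-miR-3155b have that of miR-484. Their counts over the 6 libraries together were 9, 44 and 0, so nearly all counts on microRNAs with the seed CAGGCUC lay on miR-484.

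The 5 matched members came from 8 loci (GRCh38). MIR320B1 lies on chromosome 1 from 116671746 to 116671817 outside any other GENCODE 29 gene, and MIR320B2 on chromosome 1 from 224257040 to 224257110 in an intron of NVL. MIR320C1 and MIR320C2 lie on chromosome 18, from 21683518 to 21683589 and from 24321675 to 24321746, within introns of ABHD3 and OSBPL1A on the opposite strand. MIR320D1, on chromosome 13 from 40727816 to 40727887, and MIR320D2, on chromosome X from 140926160 to 140926231, overlapped no other gene. MIR320E lies on chromosome 19 from 46709282 to 46709354 in an intron of PRKD2. MIR484 lies on chromosome 16 from 15643294 to 15643372 on the strand of NDE1, within an untranslated exon of that gene. In all 7 miR-320 hairpins the mature RNA is on the 3′ arm, beginning at base 41 to 44. In MIR484 it is on the 5′ arm, from base 8 to base 29 of 79. The hairpins of the MIR320B loci are shown because they differ around the mature RNA, in capitals, and not within it.
MIR320B1: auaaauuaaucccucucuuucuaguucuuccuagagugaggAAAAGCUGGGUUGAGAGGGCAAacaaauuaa
MIR320B2: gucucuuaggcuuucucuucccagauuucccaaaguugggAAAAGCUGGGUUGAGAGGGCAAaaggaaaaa

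Total counts ranged from 1618248 in control replicate 1 to 15245007 in RUNX1 replicate 1, and 3 counts, taken as the floor, were 0.000185% and 1.97e-05% of these. No replicates were duplicates of each other. Chi-square over degrees of freedom was 9.62 to 21.9 for pairs of control libraries, 56.3 for RUNX1 replicates 1 and 2, and 451 and 314 for the pairs with RUNX1 replicate 3. RUNX1 replicate 3 thus stood apart. The library names of RUNX1 replicates 1 and 2, the closest RUNX1 pair, carry the same number, and whether they come from separate transductions could not be checked in the counts. Both were kept as replicates, as the sample titles give them. The members' values are also given without RUNX1 replicate 3, and those without RUNX1 replicate 1 or 2 are given at the end. As markers of the line, the erythroid microRNAs miR-451a, miR-144-5p and miR-486-5p had 686 to 3158 CPM in control and 294 to 1863 CPM in RUNX1 libraries, where CPM are counts scaled to a common library size. All 3 were lower upon RUNX1 over-expression, by log2 fold changes of -0.84, -0.58 and -0.80, while miR-144-3p was higher by 1.02 (edgeR adjusted p = 0.00132, 0.0394, 0.0355 and 0.000221). The hepatic miR-122-5p, the neural miR-9-5p and the muscle miR-133a-3p had at most 13 counts in any library. The endocrine miR-375 (67.0 to 75.8 CPM in control, 170 to 207 in RUNX1 libraries) and the epithelial miR-200c-3p (12.4 to 15.3 and 22.9 to 31.7 CPM) were present and higher in all RUNX1 libraries. The part of these markers in the members' values was not tested.

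Nearly all counts on the 6 members belonged to miR-320a and miR-484. Of 93714 counts on the members, 93648 (99.9%) were on these 2. The other 4 members did not pass the filter on low counts, which asked in at least 3 libraries for the share of counts that 10 counts make up in a library of median size, and were not tested.

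hsa-miR-320a had 2800, 9760 and 10101 counts in the control libraries, in the order of replicates 1 to 3, against 15120, 8102 and 8050 in the RUNX1 libraries. By count it was the 45th to 47th of the 2596 microRNA entries in the control libraries and the 50th or 51st in the RUNX1 libraries. hsa-miR-484 was at 2031, 9601 and 7978 counts (control) and at 9731, 4699 and 5675 (RUNX1). It ranked 49th to 53rd in control and 63rd to 72nd in RUNX1 libraries. The reads were long enough to cover a whole mature RNA, so these counts were compared between members without division by length.

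For hsa-miR-320b the control libraries held 1, 6 and 4 counts and the RUNX1 libraries 8, 3 and 2, and for hsa-miR-320e they held 1, 6 and 8 against 4, 3 and 2. hsa-miR-320c stood at 1, 2 and 4 counts against 2, 1 and 2. hsa-miR-320d stood at 1, 0 and 2 counts against 3, 0 and 0, and a count of 0 allows a share of up to 4.88e-05% of control replicate 2, 3.53e-05% of RUNX1 replicate 2 and 3.79e-05% of RUNX1 replicate 3. At this depth the order of these 4 members could not be told. Together they took 0.143% of the miR-320 counts in control replicate 1 (exact 95% binomial interval 0.0389% to 0.365%), and 0.143% and 0.178% in the other control libraries. In the RUNX1 libraries the share was 0.112%, 0.0863% and 0.0745%, with intervals that overlapped those of all control libraries. The intervals cover counting error only.

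**Figure D1:**
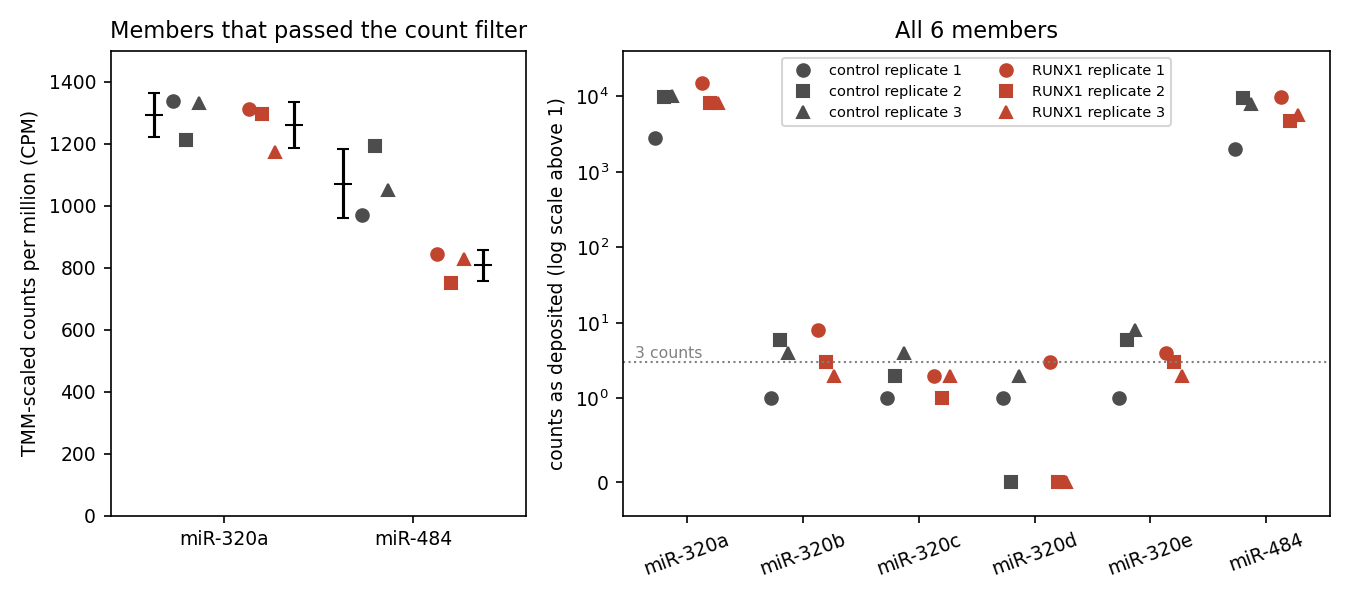
Left, TMM-scaled CPM of miR-320a and miR-484 in each library, with the mean and SD of the 3 replicates beside the points. Right, the counts as deposited of all 6 members on a log scale above 1, where miR-320a and miR-484 had 2031 to 15120 counts in every library and miR-320b to e had 0 to 8.

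The low counts of miR-320b, c and d stand beside a pattern across all microRNAs. Each of the 3 has its mature sequence at 2 loci of the RefSeq table, while miR-484 and miR-320e have a single locus. Of the 2596 microRNA entries, 2262 were matched to that table by name. Among the 160 whose sequence lay at 2 or more loci, 116 (72.5%) had no count in any library and 15 (9.38%) passed the filter. Among the 2102 with a single locus, 778 (37.0%) had no count and 505 (24.0%) passed. Entries with several loci that were picked after their values were seen were let-7a-5p with 207 counts over the 6 libraries, miR-16-5p with 305 and miR-24-3p with 20, which are abundant RNAs in many tissues. miR-92a-3p, also with 2 loci, went the other way with 982584 counts. How reads with several matching loci were counted is not given in the sources used here, and its part in the low values of miR-320b to d was not tested. miR-320e had 24 counts in all with its single locus.

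The comparison of RUNX1 with control libraries asked how over-expression of RUNX1 changes small RNAs. Counts were scaled by TMM, which assumes that most small RNAs do not change, and 947 small RNAs were tested by quasi-likelihood in edgeR. The adjusted p-values of this fit were taken over these 947 by Benjamini and Hochberg's procedure, and those of an alternative fit over the RNAs tested in it. By the thresholds of the study, an RNA was altered when its P-value was below 0.05 and its log2 fold change (FC) was 0.5 or more in either direction. Of the 947, 57.6% were altered and 29.6% were altered and lower. So large a share goes against the assumption of TMM, on which the fold changes of this fit rest. Of the 598 tested microRNAs, 56% were altered and 22.6% were altered and lower. Against this background neither tested member was altered with TMM. Some other scalings, given below, changed these calls.

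miR-320a had 1339, 1211 and 1330 CPM in control and 1312, 1296 and 1175 CPM in RUNX1 libraries. The groups overlapped, with RUNX1 replicates 1 and 2 inside the control range and replicate 3 just under it. The means were 1293 ± 71.4 CPM in control and 1261 ± 74.9 CPM upon RUNX1 over-expression (SD, n = 3 each). This is a log2 FC of -0.037 with an SE of 0.118 and a 95% interval of -0.30 to 0.23 (edgeR adjusted p = 0.815). The interval ended inside the threshold of 0.5 on both sides. Among the 598 tested microRNAs, 264 had a lower fold change than miR-320a. The 5 miR-320 entries summed gave a log2 FC of -0.037 (SE 0.118), which is the value of miR-320a, since the other entries add so few counts. Without RUNX1 replicate 3 miR-320a had a log2 FC of 0.099.

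miR-484 had 971, 1191 and 1051 CPM in control and 844, 752 and 828 CPM in RUNX1 libraries. All 3 RUNX1 libraries lay below all control libraries, and for 64.8% of the tested small RNAs the groups were apart in one direction or the other. The means were 1071 ± 111.5 CPM in control and 808 ± 49.4 CPM upon RUNX1 over-expression (SD, n = 3 each). For miR-484 the log2 FC was -0.41 with an SE of 0.129 and a 95% interval of -0.70 to -0.12 (edgeR P-value 0.0115, adjusted p = 0.0223). The P-value passed its threshold and the size did not, so miR-484 was not altered by the thresholds of the study. With the P-value alone, 32.5% of the tested small RNAs were lower. Over the alternatives its edgeR or DESeq2 adjusted p ranged from 0.000302 to 0.296, the latter from the fit without a count filter, taken over 3084 RNAs. Leaving out control replicate 2 or RUNX1 replicate 2 gave a log2 FC of -0.33 or -0.30, past no threshold (edgeR P-values 0.0673 and 0.0899), and leaving out RUNX1 replicate 3 gave -0.34.

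**Figure D2:**
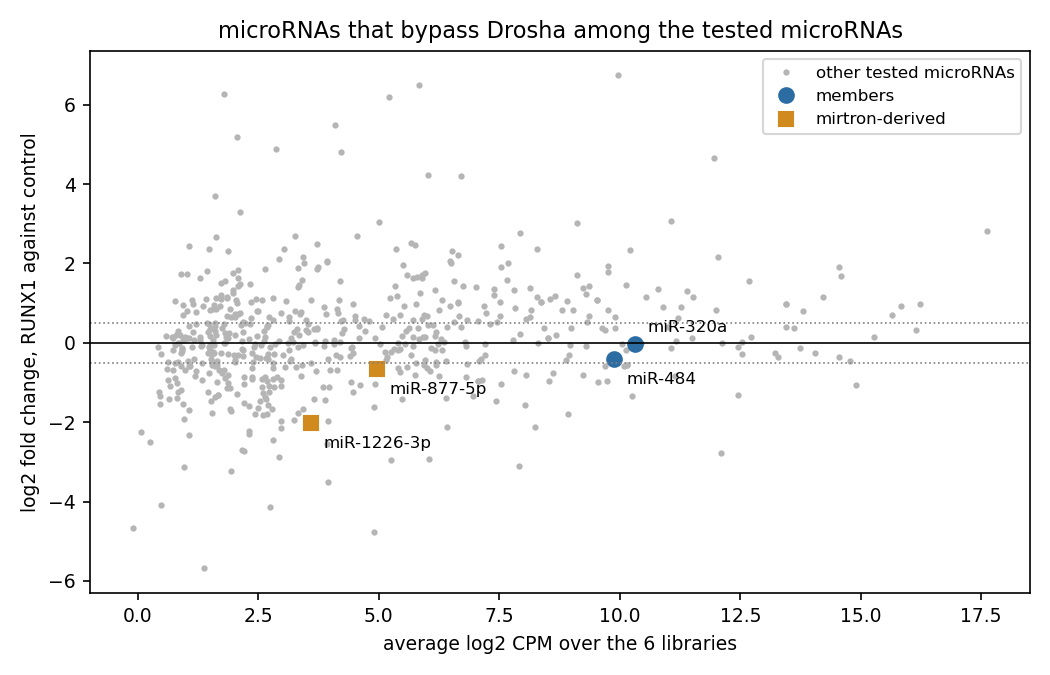
Log2 fold change upon RUNX1 over-expression against average log2 CPM for the 598 tested microRNAs, with dotted lines at the threshold of 0.5. miR-320a lies at -0.037 and miR-484 at -0.41, both among abundant microRNAs, and the mirtron-derived miR-877-5p and miR-1226-3p lie below both at lower abundance.

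The size of both values depended on how libraries were scaled. miR-10a-5p alone took 7.08% to 8.56% of the microRNA counts in control and 27.4% to 32.1% in RUNX1 libraries. As a share of microRNA counts, miR-320a took 0.211%, 0.195% and 0.199% in control and 0.108%, 0.104% and 0.114% in RUNX1 libraries. miR-484 took 0.153%, 0.192% and 0.157% against 0.0695%, 0.0605% and 0.0801%. For both members all RUNX1 libraries lay below all control libraries. How many other microRNAs did so on this measure was not counted, so it cannot be called particular to these members. A share also falls when miR-10a-5p takes more of the counts. On another measure, the fit with scaling to library size alone, 55% of the tested small RNAs were altered and lower. The median log2 FC of the tested microRNAs was -0.59 there. The differences were -0.0931 percentage points for the summed miR-320 family and -0.0972 for miR-484 (exact permutation test, two-sided, p = 0.1 for each, the smallest that 3 against 3 can give, adjusted 0.2 over 6 comparisons). With miR-10a-5p left out of the denominator they were -0.063 and -0.0811 percentage points, and without RUNX1 replicate 3 they were -0.0956 and -0.102.

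In the fold changes, scaling to library size alone gave -0.74 for miR-320a (SE 0.111, edgeR adjusted p = 0.000529) and -1.11 for miR-484 (SE 0.150, edgeR adjusted p = 0.000302), and both members were then altered. Under that scaling 67.7% of the tested small RNAs were altered and 55% altered and lower, and the median log2 FC of the tested microRNAs was -0.59. TMM on microRNAs only gave -0.23 for miR-320a and -0.60 for miR-484, of which only miR-484 passed both thresholds, with 58.9% of small RNAs altered and 36.4% altered and lower. Library size without miR-10a-5p gave -0.37 and -0.74, and again only miR-484 passed both thresholds, beside 61% altered and 41.4% altered and lower.

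Another scaling shifts all fold changes by nearly the same amount, so the distance of a member to the median of the tested microRNAs is set almost by construction and says nothing of how stable its value is. As a description, miR-320a lay 0.14 to 0.15 below that median and miR-484 lay 0.51 to 0.52 below it on the log2 scale under all 5 scalings. Between 183 and 187 of the 598 microRNAs had a lower fold change than miR-484, and between 261 and 265 a lower fold change than miR-320a.

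**Figure D3:**
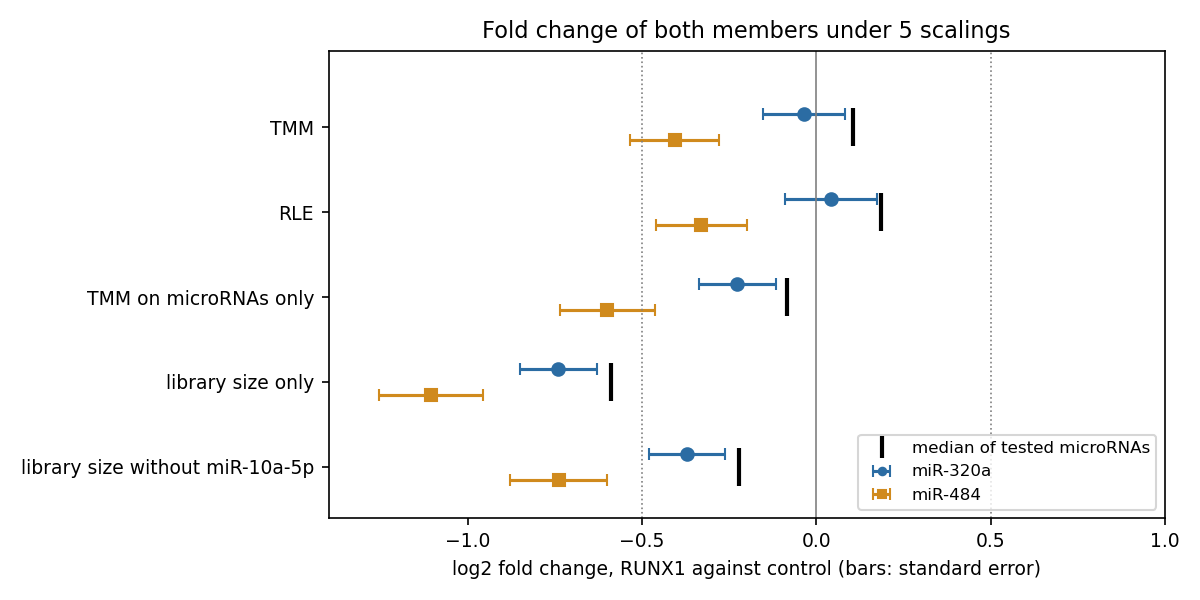
Log2 fold change of miR-320a (circles) and miR-484 (squares) with standard errors under 5 ways to scale the libraries, beside the median of the 598 tested microRNAs (vertical marks) and the threshold of 0.5 (dotted). All 3 marks move together, from a median of 0.18 with RLE factors to -0.59 with library size only, and miR-484 stays to the left of miR-320a.

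The ratio of both members within a library needs no scaling between libraries. miR-484 had 0.725, 0.984 and 0.790 counts per count of miR-320a in control and 0.644, 0.580 and 0.705 in RUNX1 libraries. All RUNX1 ratios lay below all control ratios, although RUNX1 replicate 3 and control replicate 1 were close. In control replicate 2 the shares of both members, 0.195% and 0.192%, had overlapping counting intervals. In the other 5 libraries miR-320a had more counts than miR-484 beyond counting error. How well each RNA is captured in a library was not measured, so the counts do not rank their abundance in the cells. On the log2 scale the ratio was -0.28 ± 0.227 in control and -0.64 ± 0.141 in RUNX1 libraries (SD, n = 3 each), a difference of -0.37 (exact permutation test, two-sided, p = 0.1, the smallest possible here, adjusted 0.2 over 6 comparisons). Without control replicate 2 the difference was -0.24, and without RUNX1 replicate 3 it was -0.44. The log2 ratios to miR-320a of miR-320b, miR-320c and miR-320e differed by -0.28, -0.95 and -0.95 between the groups with overlapping samples (exact permutation p = 0.5, 0.2 and 0.2, two-sided), and rest on 1 to 8 counts in a library. For miR-320b the size changed with the library left out. It was -0.0013 without RUNX1 replicate 3, -0.043 without control replicate 2, -0.43 without control replicate 1 and -0.55 without RUNX1 replicate 1. For miR-320d the ratio was not formed, since 3 libraries had no count.

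**Figure D4:**
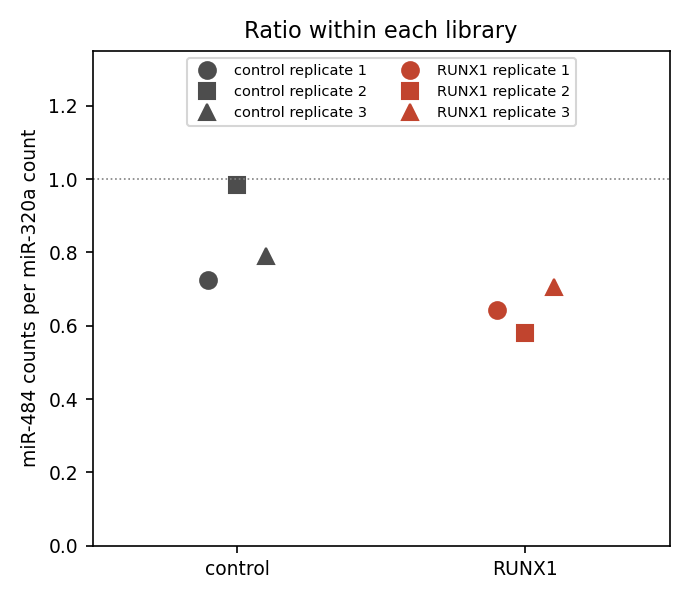
Counts of miR-484 per count of miR-320a in each library, with a dotted line at equal counts. The 3 control libraries lie between 0.725 and 0.984 and the 3 RUNX1 libraries between 0.580 and 0.705.

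The microRNAs listed as mirtron-derived were taken as the other group that avoids Drosha, by name and without a check of the processing of each entry. The list held the arms of miR-877, miR-1224 to miR-1229 and miR-1236 to miR-1238, which are 20 entries, 4 of them without a count in any library. Of these, 2 passed the filter and both were altered and lower, beside 22.6% of the tested microRNAs and 29.6% of all tested small RNAs. With 2 entries this describes them and not mirtrons as a group. They had a median log2 FC of -1.35, against -0.064 for all tested small RNAs and 0.11 for the tested microRNAs. miR-877-5p, from an intron of ABCF1, had 38.7, 36.6 and 39.5 CPM in control and 26.5, 22.1 and 23.5 CPM in RUNX1 libraries, which is a log2 FC of -0.67 (SE 0.143, edgeR adjusted p = 0.00314). miR-1226-3p, from an intron of DHX30, had 23.0, 22.8 and 15 CPM in control and 5.99, 4.80 and 3.65 CPM in RUNX1 libraries, which is a log2 FC of -2.03 (SE 0.258, edgeR adjusted p = 0.000154). In both the groups were apart, as they were for 64.8% of the tested small RNAs. Among the entries below the filter, miR-1237-3p was the most abundant, at 2, 6 and 6 counts against 18, 13 and 17 in the RUNX1 libraries. It was left out by the filter, and in the 4 alternative fits in which it was altered it was higher, with a log2 FC of 1.24 to 1.38.

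The patterns of both members over the 6 libraries had little in common. The Pearson correlation of their log2 CPM was -0.048 over 6 libraries, which share depth and scaling. Of 596 other tested microRNAs, those most like miR-320a were miR-758-3p (r = 0.93), miR-1284 (r = 0.87) and miR-135b-3p (r = 0.86), with mean levels in control of 5.71, 2.75 and 11.1 CPM and log2 fold changes of -0.050, -0.71 and -0.055. Those most like miR-484 were miR-3918, miR-4497 and miR-3150a-5p, each with r of 0.97 to 0.98, with 1.67, 2.17 and 12.3 CPM in control and log2 fold changes of -0.95, -4.09 and -1.98. All 6 were far less abundant than the members, and the correlations are a description of these libraries only.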

How the data were processed

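Small RNA of transduced K562 cells was sequenced by the authors (TruSeq Small RNA kit, HiSeq2000, single reads), demultiplexed with CASAVA 1.8.2 and passed to the OASIS platform. The deposited values are whole-number counts per annotated small RNA, not normalized. The submitters' processing notes name hg19. The aligner, annotation release and treatment of reads with several loci are not given in the sources used here. The last 5 entries of each file, which name no RNA, hold 0 counts and were left out.

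Groups and replicate numbers come from the sample titles. Library names carry the letter A for control and B for RUNX1, and whatever these letters stand for cannot be told apart from the condition. The number after the letter is the same for RUNX1 replicates 1 and 2, whose index sequences differ. If they share a transduction, the SD and p-values of the RUNX1 group are in part technical. The p-values of the fits set the difference between the groups against the spread between samples within the groups. Those of the permutation tests set it against the differences under all regroupings of the samples. The whole table was fitted with edgeR 4.0.16 (limma 3.58.1, R 4.3.3): filterByExpr (minimum count 10 in a library of median size, minimum total 15), TMM, glmQLFit and glmQLFTest with condition as the only term, and Benjamini-Hochberg adjustment over the 947 RNAs tested. SE was obtained as log2 FC over the square root of F. CPM are relative to the scaled library size, and a prior count of 2 was used for log2 CPM. Tested on simulated data with 195 RNAs changed by 1.5 on the log2 scale and 720 unchanged, edgeR recovered 99.0% and called 2.78% of the unchanged, DESeq2 1.42.0 97.9% and 2.08%. Recovery at smaller sizes, such as the log2 FC of -0.41 of miR-484, was not tested. How both tools perform with 57.6% of RNAs altered, or with a log2 FC of 2.83 as for miR-10a-5p, was not tested either. Shares and ratios were compared by exact permutation tests.

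Alternatives were DESeq2, RLE factors, library size with and without miR-10a-5p, TMM on microRNAs, other count filters, the replicate number as a block, the miR-320 entries summed, other thresholds and denominators, a small constant added to the counts of ratios, and each replicate left out. Named RNAs are the 6 members, the tested mirtrons (miR-1237-3p was added after its counts were seen), miR-10a-5p, and for both tested members the 3 microRNAs of highest correlation. The members and lists were chosen with earlier results of these data known. Genome positions and sequences are from RefSeq and GENCODE 29 on GRCh38, not from the files.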

Additional observations from a re-analysis of the deposited data

How the results depend on the processing

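For miR-320a the sign of the log2 fold change depended on the setting. It was 0.042 with RLE factors, 0.060 without a count filter and 0.043 with DESeq2, and -0.74 with library size only, the sole setting in which it was altered. Leaving out a replicate gave -0.088 to 0.099, the highest without RUNX1 replicate 3. It was -0.040 without RUNX1 replicate 1 and -0.0010 without RUNX1 replicate 2. The summed miR-320 family gave 0.041, 0.059 and 0.042 in the same 3 settings, -0.74 with library size only, and -0.089 to 0.098 with a replicate left out. miR-484 kept its negative sign in all 15 alternatives, with -0.42 without RUNX1 replicate 1 and -0.30 without RUNX1 replicate 2. It was altered with -1.11 (library size only), -0.60 (TMM on microRNAs only) and -0.74 (library size without miR-10a-5p). The number of altered members, 0 with TMM, was 2 with library size only and 1 each with TMM on microRNAs, with library size without miR-10a-5p and without the fold-change threshold. Of the mirtrons, 2 were altered, and 4 without a count filter, where 761 of 3084 small RNAs were altered. With a replicate left out the number ran from 2 to 4, where miR-877-5p and miR-1226-3p stayed lower in all 14 fits and miR-1237-3p, with 1.37 without a count filter and 1.38 without control replicate 1, was higher. Without a count filter miR-1224-5p was also called higher, at 0 counts in all control libraries against 5, 1 and 0. Without control replicate 1 miR-1227-3p was also called, and was lower with -1.13 (edgeR P-value 0.0376). With a replicate left out, 521 to 612 of the 969 to 1020 tested small RNAs were altered. The cause of these shifts was not tested, beyond the scaling itself.

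With the replicate block, miR-320a had -0.037 and miR-484 -0.40 (P-value 0.0395, adjusted p = 0.0661 from edgeR), and no call changed. No pairing of the samples by number was seen, though a pairing could go unseen with so few samples. Deviations from the group means correlated by -0.033, -0.090 and 0.018 for samples of the same number, and by -0.034 to 0.087 for samples of different numbers. The library names of RUNX1 replicates 1 and 2 do not differ in their number. Without a count filter the untested members had log2 fold changes of -0.18 (miR-320b), -0.84 (miR-320c), -0.46 (miR-320d) and -1.08 (miR-320e), with standard errors of 0.726 to 1.38, and none was altered. At 0 to 8 counts a library these errors leave room for changes in either direction. They gave no value under the other fits.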
